A study of Drosophila melanogaster with 3 samples.

Results

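The Drosophila T-box genes bi, byn, H15, mid and org-1 were examined for recovery of Doc3-eGFP on chromatin. They were taken by name, are the 5 T-box genes described here beside the 3 Dorsocross genes, and are 5 of 13945 protein-coding genes on the 6 main chromosome sequences. The territory of a gene was its body plus 20 kb on either side, without bases nearer to the transcription start site (TSS) of another coding gene. Anti-GFP chromatin immunoprecipitation followed by sequencing (ChIP-seq) had been carried out on whole Drosophila melanogaster embryos aged 0 to 24 h from the transgenic strain Doc3-GFP, with chromatin sonicated to a size range of 200 to 800. All 3 samples form 1 group and carry the same fusion, and per the labels they are biological replicates. Peak lists carry no expression values, so the embryo label could not be checked against marker genes. The labels do not say which promoter drives the fusion or whether the endogenous Doc3 gene is intact. They name a possible control experiment, which was not analysed here, so no value below is a difference from a mock or input sample and no test was made.

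T-box proteins are transcription factors that share a DNA-binding domain, the T-box, and recognise sites built on the letters GGTGTGA. Doc3 and its neighbours Doc1 and Doc2 act in the amnioserosa and in the dorsal and cardiac mesoderm of the embryo. The other fly T-box genes work in various tissues, not all of them separate from those of the Dorsocross genes. The gene bi, also called optomotor-blind, is a Tbx2/3-type factor of the optic lobe, wing and abdomen. The Brachyury orthologue byn is needed for the hindgut and the caudal visceral mesoderm. The Tbx20-type pair mid and H15 acts in the heart, the ventral ectoderm and the nervous system, and the Tbx1-type gene org-1 acts in visceral and somatic muscle founder cells. Whole embryos mix these tissues, so strong recovery in few cells and weak recovery in many cannot be told apart.

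The region that carried the strongest recovery at any of the 5 genes was a peak in the first intron of org-1. It is shown whole because of its sequence, which holds a tandem repeat. Genome sequence of release 6 (dm6), as held by RefSeq, is printed from the plus strand, 5′ to 3′. Capitals mark the repeat unit GGTTAAAG in the peak chrX:8452230-8452481:
org-1 peak: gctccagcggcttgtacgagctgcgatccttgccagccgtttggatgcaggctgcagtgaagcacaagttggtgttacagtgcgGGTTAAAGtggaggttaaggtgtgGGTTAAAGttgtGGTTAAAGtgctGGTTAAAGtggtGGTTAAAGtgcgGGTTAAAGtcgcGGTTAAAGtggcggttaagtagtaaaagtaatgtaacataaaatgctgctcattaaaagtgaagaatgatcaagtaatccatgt
The strongest region of mid, at its promoter, is shown as the 101 bp around the summit, chr2L:5461364-5461464, with capitals on the letters GAGAG on either strand:
mid promoter region: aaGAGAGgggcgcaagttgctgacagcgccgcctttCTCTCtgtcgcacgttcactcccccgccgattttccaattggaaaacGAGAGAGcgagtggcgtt
The strongest regions of the other 3 genes are given as the same window around the summit, chr3L:11932203-11932303, chrX:4439623-4439723 and chr2L:5396414-5396514, all in lower case because none of the motifs searched lay in them:
byn region: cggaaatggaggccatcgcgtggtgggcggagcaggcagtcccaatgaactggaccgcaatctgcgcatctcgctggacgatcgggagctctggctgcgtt
bi region: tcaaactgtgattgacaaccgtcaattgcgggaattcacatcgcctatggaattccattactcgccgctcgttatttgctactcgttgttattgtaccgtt
H15 region: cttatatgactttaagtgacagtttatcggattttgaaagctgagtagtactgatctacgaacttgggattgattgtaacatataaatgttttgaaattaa
The windows differed in base composition, with 63.4% G and C in the byn window, 57.4% in that of mid, 43.6% in that of bi and 29.7% in that of H15.

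Of the 5 genes, org-1 had a peak in the thresholded lists throughout, mid had one in a single list, and bi, byn and H15 had none. The conservative list of the whole series held 2793 peaks, and a single one had its summit in a territory of these genes, in that of org-1. Across all coding genes, 16.7% had a conservative summit in their territory, so a count of 1 of 5 is near the background. The territories of bi, H15 and mid are wide, at 85.83, 48.86 and 45.97 kb, and those of org-1 and byn are narrow, at 7.74 and 7.06 kb, against a median of 4.33 kb over coding genes. Wide territories did not carry summits more often: 13.0% of the 339 coding genes with 40 kb or more had one, and 17.6% of the 2846 genes with 5 to 10 kb. With any overlap within 20 kb of the gene body, whichever gene was nearest, the count was again 1 of 5, while 66.1% of coding genes had such a peak. No Dorsocross gene had a conservative summit in its territory.

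The distance to the nearest conservative peak set org-1 apart from the other 4 genes, though not from coding genes at large, of which 66.1% had one within 20 kb. For org-1 the peak lay inside the gene. The nearest peak lay 46.24 kb from the body of bi, 56.51 kb from mid, 57.18 kb from byn and 77.03 kb from H15. Among the Dorsocross genes it lay 6.93 kb from Doc3, 14.42 kb from Doc2 and 43.11 kb from Doc1. The 3 remaining series-level lists held 2301, 2456 and 3513 peaks. They carried the identical org-1 entry, with the same bounds, summit and signal, so they are not separate evidence for it. In the lists of 2301 and 2456 peaks org-1 was again the only one of the 5 genes with a summit, where 14.0 and 15.4% of coding genes had one. The longest list added mid, for a count of 2 of 5, against 21.3% of coding genes.

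The org-1 gene (FBgn0021767, X, 8447691 to 8455069, minus strand) encodes the optomotor-blind-related T-box factor. Its conservative peak had a signal of 393, in units of the authors' peak caller whose scale no source states. That put it at rank 411 of 2793, with 85.3% of the other peaks weaker, and at rank 411, 412 and 412 in the lists of 2301, 2456 and 3513 peaks. The peak was also in each replicate's own thresholded list. Its signal there was 49.2 in replicate 1, 196 in replicate 2 and 141 in replicate 3. These values come from separate scales and are read by rank: 1004 of 1774, 278 of 2486 and 406 of 1812. The peak therefore stood in the upper part of the lists of replicates 2 and 3 but in the lower part of that of replicate 1, where 56.5% of the list was stronger. In those replicate lists org-1 was the only one of the 5 genes with a summit, against 12.0, 15.7 and 12.0% of coding genes in replicates 1, 2 and 3.

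**Figure D1:**
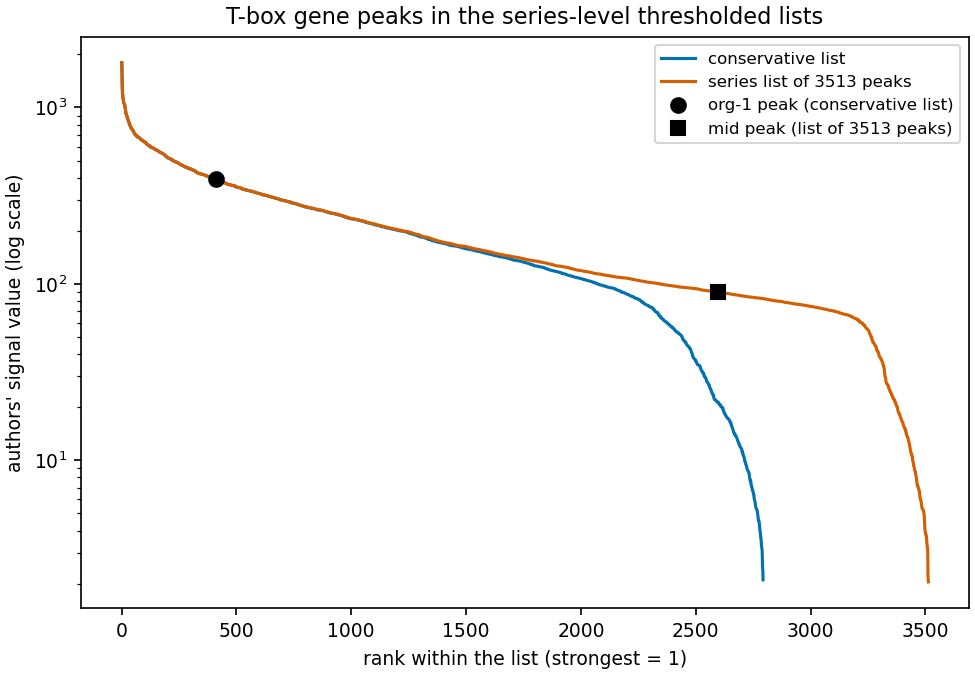
Signal given by the authors' peak caller (log scale) against rank for the conservative list of 2793 peaks and the longest series list of 3513 peaks. The org-1 peak sits at rank 411 with a signal of 393, and the mid peak of the longest list at rank 2597 with 89.8.

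The org-1 peak differed from most conservative peaks in position. Its summit, at 8452378, lay 2491 bp downstream of the nearest org-1 TSS, in intron 1 (8452281 to 8454131, 1851 bp) and 98 bp from exon 2, of which the peak covered 51 bp of coding sequence. Only 202 of the 2793 conservative summits lay over 500 bp from every annotated TSS, and the org-1 peak ranked 13 among those. The median signal of these 202 was 118, and over the whole list it was 170. At 252 bp the org-1 peak was narrower than the median of 484 bp, and 408 peaks (14.6%) were narrower still. The 3 replicates placed their summits within 13 bp of each other.

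A tandem repeat fills the centre of that peak. It was noticed once the sequence had been printed, so the counts describe it and support nothing. The unit GGTTAAAG occurred 7 times over 92 bp (8452314 to 8452405), always on the plus strand, which is the strand opposite to org-1 transcription. Of the 6 distances from copy to copy, 5 were 12 bp and the other was 24 bp. A search of both strands found 6 copies within 50 bp of the conservative summit. At least 1 copy of the 8 letters was present in 28 of 2793 conservative peaks (1.0%), and none of the other 27 held more than 1. Among the 13678 regions that all 3 ranked lists shared, 2 held 2 or more copies and 1 held 3 or more. What part the repeat has in the signal of this peak was not tested.

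**Figure D2:**
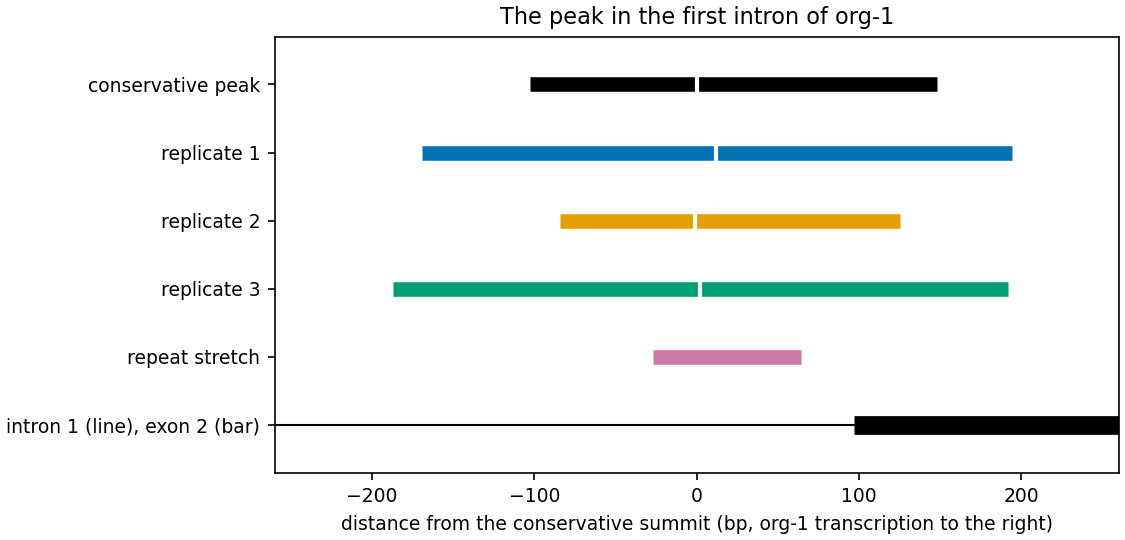
The org-1 peak drawn as distance from its conservative summit (bp), with org-1 transcription to the right. Bars are the extents of the conservative peak and the 3 replicates' thresholded peaks, white marks are their summits, the pink bar is the 92 bp repeat stretch, and the bottom row shows the end of intron 1 (line) and the start of exon 2 (bar), 98 bp from the summit.

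The longer ranked lists, in which weak regions are kept, gave a broader view. They held 30159, 59389 and 141211 entries in replicates 1, 2 and 3 and covered 7.9, 16.5 and 35.2% of the 6 chromosome sequences. Bases covered in all 3 lists formed 13678 shared regions, of which 18 had their summit in the territories of the 5 genes. There were 6 at bi, 5 at mid, 3 at org-1, 3 at H15 and 1 at byn. All 5 genes thus had at least 1, as did 53.7% of all coding genes, 85.5% of those with a territory of 40 kb or more and 58.1% of those with 5 to 10 kb. The signal of each region was expressed as a percentile, the share of the other entries of the same list that were weaker. The number follows the lists used: bases shared by 2 lists formed 61 regions at the 5 genes without replicate 1 and 36 without replicate 2, and lists cut to 30159 entries each left 4, with none at H15. Averaged over replicates, the median percentile was 54.9 for the 18 regions and 66.0 for all shared regions.

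Relative to the size of the territory, org-1 had the most shared regions of the 5 genes, with byn next, and mid, bi and H15 lower. Per 10 kb the number was 0.699 at bi, 0.614 at H15 and 1.09 at mid, where the 339 genes with 40 kb or more had a median of 0.533 and quartiles of 0.214 and 0.935. The values of bi and H15 lay between the quartiles, and that of mid, which counts a pair of regions with common entries separately, lay above. With 4 regions at mid, as found where all 3 lists had to share at least 100 bp, its density was 0.870, below the 0.935 that had been computed with any overlap. Without replicate 3 mid was again at 0.870, below the 0.932 of bi, so the order of these genes is not settled. At byn the density was 1.42 and at org-1 3.87, from 1 and 3 regions in short territories. Of all coding genes, 61.4% had a lower density than byn and 82.5% a lower one than org-1, and the median over all genes was 0.557. The Dorsocross genes had 2 (Doc1), 3 (Doc2) and 2 (Doc3) regions, at densities of 1.40, 1.90 and 3.43 per 10 kb. With 1 to 6 regions a gene these densities are coarse.

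**Figure D3:**
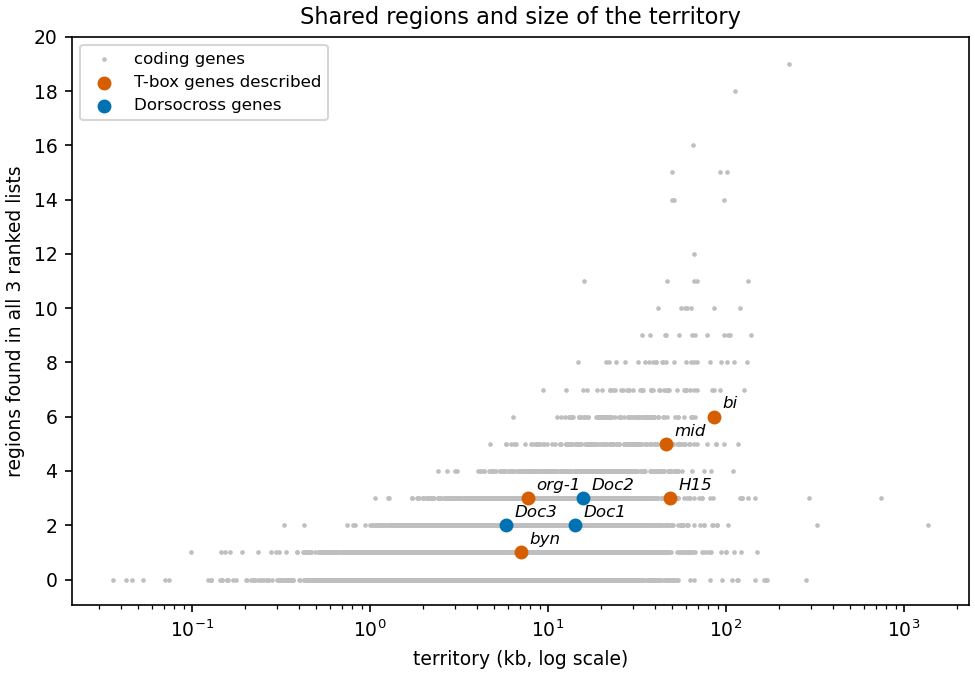
Number of regions found in all 3 ranked lists against territory (kb, log scale) for all coding genes (grey), the 5 T-box genes described (orange) and the Dorsocross genes (blue). The 5 genes hold between 1 (byn) and 6 (bi) regions, and genes with as wide a territory as bi range from few regions to more than bi has.

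The strongest shared region of each gene ordered the 5 genes as org-1, mid, byn, bi and H15. At org-1 its percentiles in replicates 1, 2 and 3 were 96.5, 99.5 and 99.7, averaging 98.6 ± 1.77 (SD, n = 3). This is the intronic peak described above. At mid the values were 88.5, 93.7 and 94.5, averaging 92.2 ± 3.25. The 3 values of org-1 all lay above the 3 of mid. At byn they were 52.0, 89.0 and 93.5 (78.1 ± 22.8), at bi 65.3, 58.4 and 94.9 (72.9 ± 19.4), and at H15 56.2, 47.0 and 87.5 (63.6 ± 21.3). The ranges of byn, bi and H15 overlapped each other, so their order is not separated by the spread between replicates. In each replicate mid stood above byn and H15, and it stood above bi except in replicate 3, where the values were 94.5 and 94.9.

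Set among all 7490 coding genes with a shared region, the best region of org-1 was exceeded in 9.73% of genes and that of mid in 30.6%. It was exceeded in 49.0% for byn, 56.6% for bi and 70.8% for H15, whose best regions thus lie in the middle of the range or below it. These shares take no account of the number of regions, which ran from 1 at byn to 6 at bi. The median best region was at 77.4 over all coding genes and at 73.6 for territories of 40 kb or more. The Dorsocross genes spanned a like range: the best region was at a mean percentile of 92.6 for Doc2, 74.4 for Doc3 and 73.1 for Doc1.

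**Figure D4:**
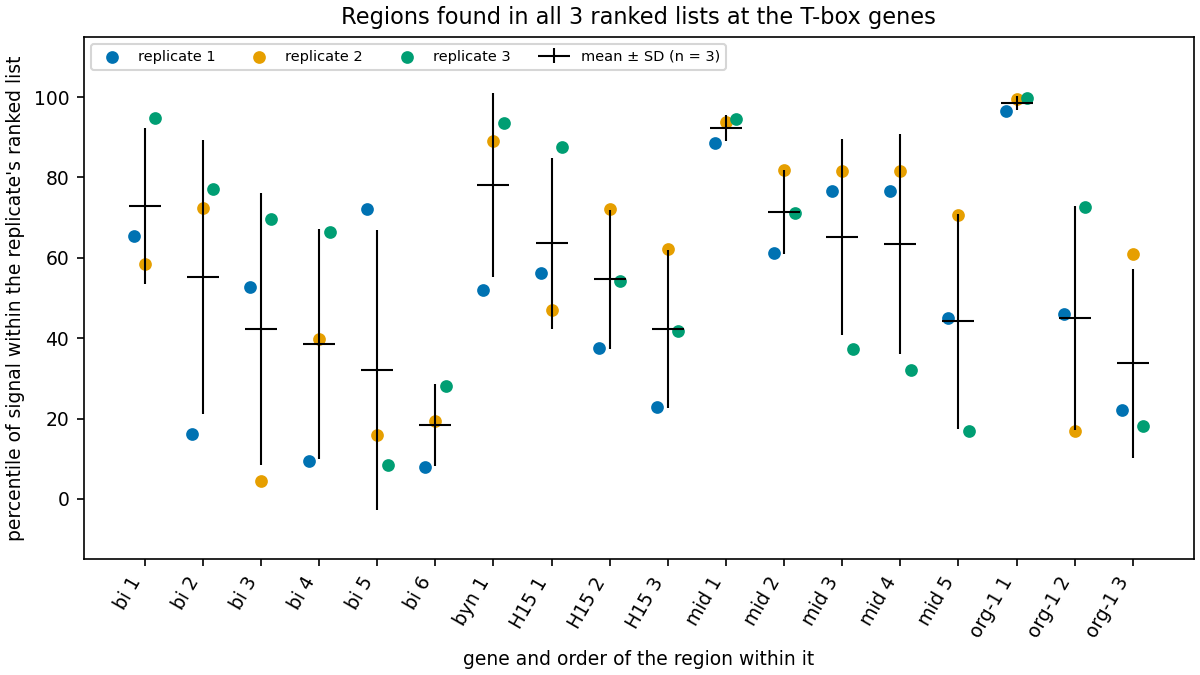
Percentile of signal within each replicate's ranked list for the 18 shared regions of the 5 genes, numbered by mean within a gene; coloured points are replicates and black marks the mean ± SD (n = 3). The first regions of org-1 and mid stand high in all 3 replicates, and most others spread widely, such as the fifth of bi from 8.37 to 72.1.

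The mid gene (FBgn0261963, 2L, 5461639 to 5467610, plus strand) encodes the Tbx20-type factor midline. Its strongest region lay at the promoter, with its summit 225 bp upstream of the TSS. The signal was 17.7 in replicate 1, 39.4 in replicate 2 and 30.6 in replicate 3, and the summits lay within 64 bp of each other. It is the same place as the mid peak of the longest series list (5461185 to 5461668), whose summit lay 212 bp upstream of the TSS, with a signal of 89.8 at rank 2597 of 3513. None of the 3 replicate thresholded lists held it. Its second region lay outside coding genes, 15279 bp downstream of the TSS, with percentiles of 61.1, 81.9 and 71.1. The third covered 70 bp at the last coding exon, 4334 bp downstream, with percentiles of 76.6, 81.7 and 37.4. Regions 3 and 4 are not independent, since a single entry of replicate 1 and a single one of replicate 2 spanned both. In replicate 3 the strongest entry at mid, with a signal of 32.7, lay 12372 bp upstream of the TSS and in no shared region.

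The H15 gene (FBgn0016660, 2L, 5404280 to 5416593, plus strand) is the neighbour and close relative of mid. None of its 3 shared regions lay at its promoter or in the gene body, and all 3 lay outside coding genes. The first lay 7816 bp upstream of the TSS, with signals of 10.1, 17.2 and 24.7 in replicates 1, 2 and 3. The second lay 21388 bp downstream of a TSS of H15, with percentiles of 37.6, 72.2 and 54.1, and the third 14599 bp upstream, with 22.9, 62.1 and 41.8. The strongest entry of H15 in replicate 1 (18.2) and that in replicate 3 (35.2) were at other places, in no region shared by all 3 lists. That of replicate 1 did recur in replicate 3. Measured from the most upstream start site, it lay at 14.557 kb, where replicate 3 had an entry at 14.497 kb with a percentile of 79.6. That of replicate 3 lay at 23.27 kb and overlapped no entry of replicates 1 and 2. Unlike mid, H15 had no peak in any thresholded list.

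The byn gene (FBgn0011723, 3L, 11927693 to 11935919, plus strand) lies inside CG44837, a gene on the opposite strand that starts beyond the 3′ end of byn, and 14.6% of its window was kept as territory. Its shared region (11932129 to 11932439) lay 4560 bp downstream of the TSS, with its summit in the first coding exon of byn. The signal was 9.72 in replicate 1, 31.5 in replicate 2 and 29.4 in replicate 3, and the region held the strongest entry of the territory in each of them. The replicate summits lay within 61 bp of each other. In replicate 1, however, the region stood near the middle of the list, with 52.0% of the other entries weaker.

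The bi gene (FBgn0000179, X, 4412856 to 4485647, plus strand) is the longest of the 5 and overlaps the non-coding gene lncRNA:CR32773. Its first region lay in an intron 12538 bp downstream of the nearest of its start sites, with signals of 11.2, 19.5 and 31.3 in replicates 1, 2 and 3. The second lay in an intron 46656 bp downstream, overlapping an annotated fragment of a Juan transposable element, with percentiles of 16.1, 72.4 and 77.2. The third lay in an intron 813 bp downstream, with 52.7, 4.56 and 69.6. A further region at the bi promoter, 273 bp from a TSS, had percentiles of 72.1, 15.9 and 8.37. Region 4 was covered by all 3 lists over only 15 bp. The strongest entries of bi in replicates 2 (27.3) and 3 (31.7) lay in no region shared by all 3 lists. Each did recur, more weakly, in the other of these replicates. Measured from the most upstream start site, that of replicate 2 lay at -2.243 kb, where replicate 3 had an entry at -2.23 kb (12.2). That of replicate 3 lay at 50.296 kb, where replicate 2 had one at 50.153 kb (14.8). No bi region was in a thresholded list.

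**Figure D5:**
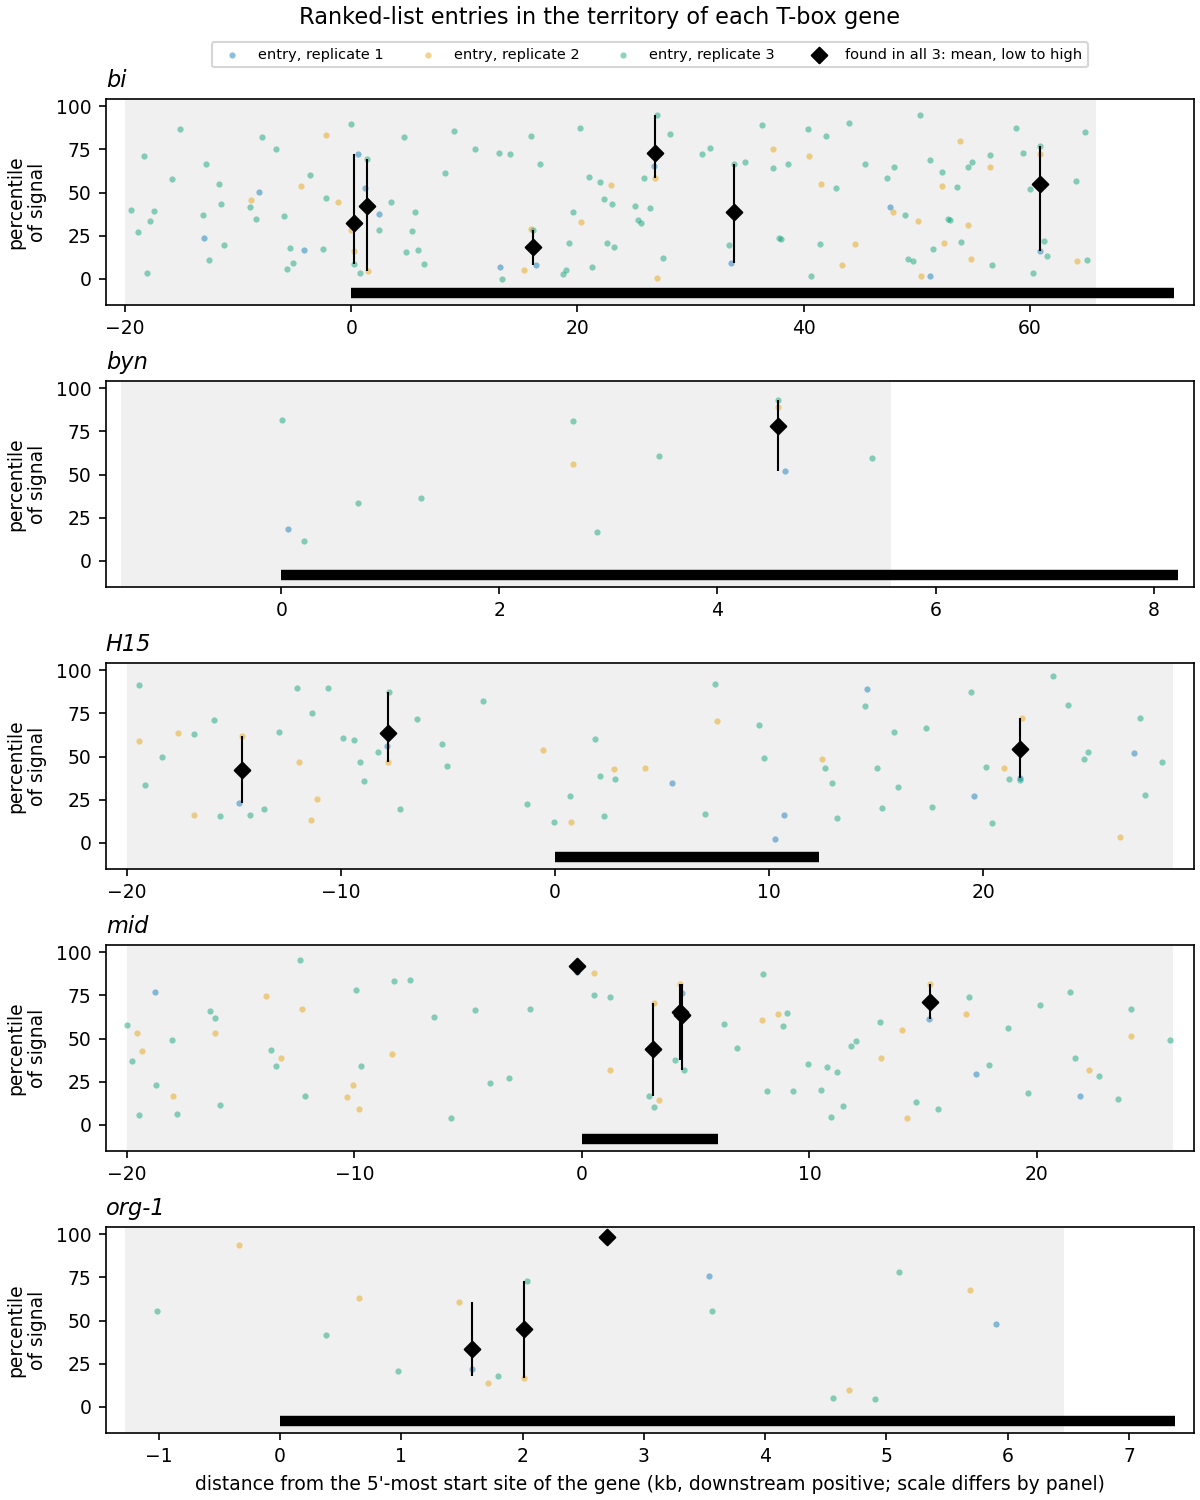
Entries of the 3 ranked lists (coloured points) and shared regions (black diamonds, mean with lowest to highest replicate) in each gene's territory (grey), against distance from the most upstream start site (kb, own scale per panel), with percentile of signal on the y axis and the gene body as a black bar. Replicate 3, with 141211 entries, has the most points throughout, and org-1 and mid each have a single diamond near the top.

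Most shared regions of the 5 genes lay away from promoters. Of the 18, 2 (11.1%) had a summit within 500 bp of an annotated TSS, against 37.9% of all shared regions. Introns of coding genes held 8 (44.4% against 25.3%), coding exons 4 (22.2% against 19.5%) and sequence outside coding genes 4 (22.2% against 14.0%). The wide territories of bi, H15 and mid supplied 14 of the regions, of which 2 (14.3%) were at a promoter, 5 (35.7%) in introns, 3 (21.4%) in coding exons and 4 (28.6%) outside coding genes. Of the 1273 shared regions in all territories of 40 kb or more, 17.0% were at a promoter, 60.9% in introns, 7.46% in coding exons and 11.7% outside coding genes. The 4 regions of org-1 and byn were not at promoters. The coding exon regions of the 5 genes were 2 at mid, 1 at byn and 1 at bi. The 2 at mid are its regions 3 and 4, which rest on the same entries in replicates 1 and 2. The coding exon shares of the 5 genes and of the wide territories therefore count that place as 2 regions.

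Sites known for T-box proteins were looked for within 50 bp of each region's summit, on both strands. The letters GGTGTGA were in none of the 18 windows, against 0.782% of all shared regions and 1.15% of the conservative peaks, so 18 windows could not be told from that background. The shorter GGTGTG was in 3 of 18 (16.7%), against 4.37% of all shared regions: the first region of org-1, the sixth of bi and the fifth of mid. AGGTGTN followed by A or G, which contains 5 of those letters and overlaps them in each case found, was in 2 of 18 (11.1% against 1.32%), at org-1 and mid. Within 100 bp the counts were again 3 and 2, against 8.71 and 2.74% of all shared regions. In the org-1 peak the GGTGTG at 8452332 lies directly before the second copy of the repeat unit, at 8452338. Counts of 3 and 2 of 18 are small, and their excess over the background was not tested. The sixth bi region has the lowest mean percentile of the 18, with 7.86, 19.4 and 28.2 in the replicates. Its GGTGTG, at 4428914, lies outside the bases that all 3 lists share, which start at 4428982. The fifth mid region is weak too, with percentiles of 44.9, 70.6 and 17.0. It also held CAGGTG, a spelling bound by Snail-type factors that overlaps one of its T-box matches.

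The territories themselves hold GGTGTGA at other places. There were 7 copies at bi, 7 at mid, 6 at H15, 1 at byn and 0 at org-1, out of 9711 in all coding gene territories. A single one of these 21 copies, at mid, lay in a shared region, 105 bp from its summit. It is given with 11 bases on either side, chr2L:5464845-5464873, and capitals mark the letters, which run on the minus strand:
mid intron site: tattgtaaaaaTCACACCtcggagtcgca
The ranked list of replicate 3 covered 4 copies at mid, 3 at H15 and 1 at bi; that of replicate 2 covered 1 each at mid, H15 and bi, and that of replicate 1 covered 2 at mid. In all, the lists of replicates 1, 2 and 3 covered 9.52, 14.3 and 38.1% of the 21 copies, near the 7.9, 16.5 and 35.2% of the chromosome sequences that they covered.

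Motifs of promoter factors gave counts too small to be told from the background. GAGAG, bound by GAGA-type factors, was in 1 of the 18 windows (5.56%), with 4 copies at the mid promoter, against 12.8% of all shared regions. Within 100 bp of the summit it was in 4 (22.2%), against 23.8%. The DRE letters TATCGATA, known from promoters of housekeeping genes, were in none, against 4.53% of all shared regions and 18.4% of conservative peaks. GGTCACACT, a core promoter element that shares letters with the reverse of the T-box site, and CACACACA were in none either, against 0.790 and 2.32%. An absence says only that these letters are not in these windows.

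Genes known to act with the 5 T-box genes were examined in 4 lists, written from general knowledge of each tissue. Of the 17 regulators and targets around bi, 4 had a conservative summit in their territory (23.5%, against 16.7% of coding genes). They were the eye selector ey, with a signal of 471 at 777 bp upstream of a TSS, and the Dpp receptor tkv (218, 7 bp upstream). The others were the Dpp effector Mad (93.0) and the ligand dpp (87.1). Of 14 genes around mid and H15, 4 had one (28.6%), namely the axon guidance receptor robo1 (337, 83 bp upstream of a TSS), the heart homeobox gene tin (263, 221 bp upstream), the muscle factor Mef2 (202, 61 bp upstream) and the homeobox gene eve (98.1, 36 bp upstream). Of 14 hindgut genes around byn, 1 did (7.14%), the gut patterning gene drm (191, 16174 bp from its TSS). Of 16 muscle genes around org-1, 1 did (6.25%), the Hox gene Ubx (94.4, 31484 bp from its TSS). Some genes stand in more than 1 list, and of the 54 distinct genes 10 had a summit (18.5%), a share near that of all coding genes. The median territory of the lists was 19.04 to 21.4 kb, far wider than the 4.33 kb of coding genes.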

How the data were processed

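Peak lists of 3 biological replicates of 1 group were used, on dm6 per the labels. The authors deposited a ranked and a thresholded list for each replicate and 4 thresholded lists for the series, 1 marked conservative. Their signal is the peak strength the authors' caller gave in the seventh column. Its scale is not stated. Aligner and caller: not given in the sources used here. The depth is unknown because the lists hold no read numbers. Signal was therefore used only within a list, as value, rank or percentile. Ranked lists of the whole series were not used. There is no test, and the spread over replicates is the error given.

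Genes and start sites came from Ensembl release 115 (genome release 6, as dm6), without transposable elements as start sites. Code in Python 3.11.15 with numpy 2.4.6, pandas 2.3.3 and matplotlib 3.10.9 was checked base by base on simulated intervals. Shared regions are bases covered by all 3 ranked lists (at least 1 bp). Their summit is the median of the replicates' summits and can lie just outside the common bases. Entries can overlap in a list, and of a region the strongest entry counted. No paired analysis was possible because there is 1 group.

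All 5 members, their peaks in series lists and their 3 strongest shared regions are described, plus the 3 Dorsocross genes, overlapping genes and up to 3 genes per list (highest signal). Regions 4 to 6, a further gene of 2 lists, the repeat and the classes of territory were chosen after their values were seen. Members and lists were chosen with earlier results of these data known. Alternatives were other flanks, overlaps, lists, list lengths, motif windows and spellings, leaving out replicates and, chosen after seeing the data, percentiles without overlapping entries and over 2 replicates, wider windows for further motifs and densities at bi and mid.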

Additional observations from a re-analysis of the deposited data

How the results depend on the processing

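Org-1 had a thresholded peak under all 11 alternatives, some of which used lists other than the conservative one. Many of these could not have removed it. The peak lies in the gene, so other flanks and overlaps keep it, and rank 411 of 2793 is in the stronger part of the list. The other series lists carry the identical entry. The count of 1 member became 2, with mid, when the list of 3513 peaks was used. The count of 18 shared regions became 28 when bases nearer to other genes were kept (8 at org-1, 4 at byn). It became 4 when the ranked lists were cut to an equal length of 30159 entries, with 1 each at bi, byn, mid and org-1 and 0 at H15. Of all coding genes, 96.6 and 33.7% had a shared region under these 2 settings, against 53.7% as reported. Leaving out a replicate gave 20 to 61: 61 without replicate 1, 36 without replicate 2 and 20 without replicate 3. In the same order, 80.8, 66.8 and 58.9% of all coding genes had a shared region. The pooled densities were then 3.12, 1.84 and 1.02 per 10 kb at the 5 genes, against 3.43, 1.85 and 1.33 for all coding genes. The 0 regions with GGTGTGA became 3 with GGTGTG and 2 with AGGTGTN followed by A or G. The remaining planned count alternatives stayed within 1.5 times the reported count. Chosen after seeing the data, a window of 100 bp either side moved the regions with GAGAG from 1 to 4. Leaving out a replicate moved the mean percentile of the strongest region to 98.0 to 99.6 at org-1, 91.1 to 94.1 at mid, 70.5 to 91.2 at byn, 61.8 to 80.1 at bi and 51.6 to 71.8 at H15. Leaving out entries that overlap a stronger one gave 98.5, 91.2, 76.3, 69.7 and 59.0 in the same order of genes. No paired analysis was possible because all samples form 1 group. No control was analysed, depth is unknown, and the number of shared regions follows the lengths of the lists, so counts are read only beside those of all coding genes.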
